A study of Mus musculus with 20 samples.

Results

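The Cyp2c family is a group of cytochrome P450 genes that lie side by side in the mouse genome, and 10 of its members were followed here in liver RNA: Cyp2c23, Cyp2c29, Cyp2c37, Cyp2c38, Cyp2c40, Cyp2c50, Cyp2c54, Cyp2c55, Cyp2c69 and Cyp2c70. They were matched by symbol among 55487 gene identifiers in a table of read counts, and all 10 were found and passed the filter on low counts in every comparison. Cyp2c23 is listed in the table under the Ensembl symbol Cyp2c44 and was matched through its Entrez symbol. The livers came from female C57BL/6J mice that were given chow or a high-fat diet (HFD) from 8 weeks of age. After 10 weeks the HFD mice were moved for 10 more weeks to controlled HFD of equal energy in which 50% of the protein came from fishmeal made of salmon by-products, from salmon filet or from beef, with casein as the rest, and the mice were 28 weeks old at the end. By the sample labels there were 5 chow, 5 fishmeal, 6 salmon filet and 4 beef mice, with 1 library per mouse. Mouse 31 is labelled salmon filet while the header of the count table calls it beef, which would make 5 mice in each group, so results for those 2 diets are given both ways. The chow mice differed from the others in the whole diet over the whole study. Fat, protein source, the rest of the diet and the move between HFD therefore cannot be told apart in any comparison with chow.

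Cytochrome P450 enzymes of the Cyp2c family sit in the endoplasmic reticulum, where they take electrons from the reductase Por and use a heme group to insert oxygen into drugs, steroids and fatty acids. Several of them turn arachidonic acid into epoxides, lipid signals that widen vessels and dampen inflammation, and others hydroxylate it along the chain. In liver the family is made mainly by hepatocytes, in part under the nuclear receptors Nr1i3 (CAR) and Nr1i2 (PXR) and the hepatocyte factor Hnf4a, and some members differ between the sexes through the pattern of growth hormone. Cyp2c70 stands apart by its task, since it makes the muricholic acids that set mouse bile apart from human bile.

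All 10 members are on chromosome 19, each with 9 exons in the GENCODE M21 annotation of GRCm38. From chr19:39007019-39042693 (Cyp2c55) to chr19:40153353-40187333 (Cyp2c70) the genes form a cluster of 9 members, while Cyp2c23 lies apart at chr19:44005022-44029208. Copies inside the cluster are so alike that short reads may not tell them apart. Coding sequences of Cyp2c40 and Cyp2c69 were 97.9% identical, those of Cyp2c37 and Cyp2c50 were 96.1% identical, and those of Cyp2c23 and Cyp2c54 only 66.0% identical. Of all 50-base stretches of its transcript, the length of 1 read here, only 27.9% were unique to Cyp2c40 and 45.2% to Cyp2c69. Cyp2c50, Cyp2c37 and Cyp2c54 followed with 69.3%, 69.9% and 74.3%, and Cyp2c38, Cyp2c29 and Cyp2c55 had 92.6%, 97.9% and 98.9%. Every stretch of Cyp2c70 and Cyp2c23 was unique. Cyp2c29 overlaps the pseudogene Cyp2c53-ps on the same strand, and whether reads that fit several genes were counted is not stated in the sources used here.

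The likeness is visible in the 30 coding bases that surround the codon of the heme-binding cysteine, the most conserved part of a P450. They are shown 5′ to 3′ from the GRCm38 genome for the members whose counts may be mixed and for 2 whose counts are their own. The stretch runs over 10 bases of exon 8 and 20 bases of exon 9. Capitals mark bases that differ from the base taken as commonest in the family. At the capital G of Cyp2c40 and Cyp2c69, which Cyp2c70 shares, a and G were equally common in the family and a was taken. Cyp2c40 and Cyp2c69 carry the same 30 bases, as do Cyp2c37 and Cyp2c54. Cyp2c70 and Cyp2c23 differ from the bases taken as commonest at 8 and 12 positions, with the tied position counted for Cyp2c70.
Cyp2c40 (chr19:39773824-39773833 and chr19:39767471-39767490, minus strand): ttctcaGcaggaaaacggatttgtgtggga
Cyp2c69 (chr19:39849346-39849355 and chr19:39843057-39843076, minus strand): ttctcaGcaggaaaacggatttgtgtggga
Cyp2c37 (chr19:40009947-40009956 and chr19:40011727-40011746, plus strand): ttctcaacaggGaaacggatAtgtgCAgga
Cyp2c54 (chr19:40040192-40040201 and chr19:40038399-40038418, minus strand): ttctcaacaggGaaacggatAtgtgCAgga
Cyp2c50 (chr19:40111408-40111417 and chr19:40113434-40113453, plus strand): ttctcaacaggaaaacggatAtgtgCAgga
Cyp2c70 (chr19:40156723-40156732 and chr19:40153738-40153757, minus strand): ttctcaGcaggaaGaAgAGCttgtAtTgga
Cyp2c23 (chr19:44007024-44007033 and chr19:44005603-44005622, minus strand): ttctcCCTCggGaaGcgATCCtgtgtTggC

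Promoters were read from RefSeq on GRCm38.p6, which held an entry for 8 of the 10 members. The hepatocyte motif CAAAGTCCA, a site that Hnf4a is known to bind, was sought on both strands in the 300 bases around each start. It was found in 3 of the 8 promoters, those of Cyp2c40, Cyp2c69 and Cyp2c70, and in 0.475% of 32851 promoters of that length. The box TATAAA was found in 6 of the 8 against 13.6% of all. For Cyp2c40 and Cyp2c69 its match lay outside the last 100 bases before the start. The last 100 bases before the start are shown for these 3 genes, because Cyp2c40 and Cyp2c69 share most of this sequence as well, with capitals for CAAAGTCCA and for TATAAA read on the other strand.
Cyp2c40 (chr19:39812815-39812914, minus strand): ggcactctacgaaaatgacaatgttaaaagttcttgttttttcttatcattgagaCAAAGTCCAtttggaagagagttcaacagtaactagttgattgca
Cyp2c69 (chr19:39886770-39886869, minus strand): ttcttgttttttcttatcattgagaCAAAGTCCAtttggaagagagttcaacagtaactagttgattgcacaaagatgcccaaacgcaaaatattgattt
Cyp2c70 (chr19:40187287-40187386, minus strand): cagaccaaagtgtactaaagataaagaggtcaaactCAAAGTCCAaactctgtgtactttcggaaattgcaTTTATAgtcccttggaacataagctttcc
The motif began 45 bases before the start of Cyp2c40, 75 bases before that of Cyp2c69 and 64 bases before that of Cyp2c70. A match of letters is a description and no binding was measured. Other motifs sought in the same way were TGTTTAC of forkhead factors in 1 of the 8 promoters (3.65% of all), GTTAAT of Hnf1 in 2 (7.10%), the nuclear receptor core AGGTCA in 2 (16.3%), and TTCNNNGAA of Stat5 in 0 (8.30%).

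The libraries held 42526234 to 70266136 reads counted on genes. The 10 members took 0.529% to 0.646% of them in chow mice and 0.313% to 0.533% in HFD mice. The library of beef mouse 35 stood apart with 84.3% of its reads on protein coding genes, against 93.2% to 95.6% elsewhere. Of 7 hepatocyte markers 6 were found, with a summed level of 99257 to 122248 CPM (counts scaled by library size) in chow and 89535 to 117031 CPM in HFD mice, and 0 of the 6 passed the test between them in edgeR. Intestine and kidney also make Cyp2c55 and Cyp2c23. The 5 intestinal markers summed to 9.86 to 35.4 CPM in chow and 6.72 to 29.5 CPM in HFD mice, nearly all of it from Lgals4 (19.1 and 19.8 CPM on average), with Cdx1 and Cdx2 at 0 counts in every library. Of the 3 kidney markers Umod and Kap were at 0 in every library and Slc12a1 was at most 0.0150 CPM. In bulk RNA, fewer cells of a type and less RNA per cell cannot be told apart.

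Levels of different genes were compared per transcript length, as TPM, in which counts are also scaled by the length of the gene's transcripts. In chow mice Cyp2c69 had the highest mean, 1676 ± 409 TPM (SD, n = 5), followed by Cyp2c37 with 1153 ± 147 TPM and Cyp2c29 with 953 ± 122 TPM. Cyp2c70, Cyp2c50, Cyp2c40, Cyp2c23 and Cyp2c54 came next with 748, 661, 617, 502 and 382 TPM, and Cyp2c38 had 172 ± 25.0 TPM. Cyp2c55, better known from the gut, was far below all others at 6.59 ± 4.40 TPM. Gaps between neighbours exceeded the sum of their SDs only from Cyp2c29 to Cyp2c70, from Cyp2c54 to Cyp2c38 and from Cyp2c38 to Cyp2c55. In the 15 HFD mice Cyp2c69 had lost its lead: its 757 ± 249 TPM (SD, n = 15) lay beside 767 ± 160 TPM of Cyp2c37, and Cyp2c54 with 151 ± 75.2 TPM lay below Cyp2c38 with 200.2 ± 31.0 TPM. Neither of these pairs of neighbours was further apart than their spread. Whether reads that fit several copies were counted is not known. The places of members with many shared stretches, such as Cyp2c40 and Cyp2c69, are therefore uncertain.

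**Figure D1:**
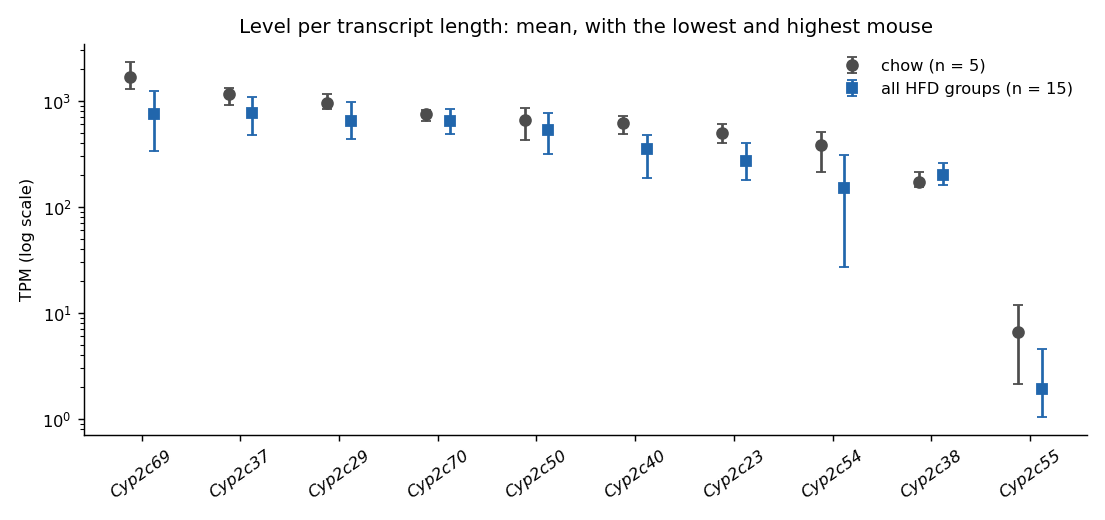
Mean TPM of each member on a log axis in 5 chow mice (circles) and 15 HFD mice (squares), with bars from the lowest to the highest mouse. Cyp2c69 was first in chow with a mean of 1676 TPM and level with Cyp2c37 in HFD mice, and Cyp2c55 lay at 6.59 TPM in chow and 1.93 TPM in HFD mice.

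The first question was how an HFD, whatever its protein source, compares with chow. Of the 10 members 7 were lower in HFD mice than in chow mice and none was higher, by edgeR's quasi-likelihood test with an adjusted p under 0.05. Of all 17120 genes tested 9.75% were called, and 5.21% were called lower. The median log2 fold change was -0.65 over the 10 members and 0.00 over all genes. The members that passed were Cyp2c69, Cyp2c40, Cyp2c37, Cyp2c54, Cyp2c29, Cyp2c55 and Cyp2c23, while Cyp2c50, Cyp2c38 and Cyp2c70 did not. Without beef mouse 35 the count was 7 as well. Levels of a single gene are given below as CPM scaled by TMM factors.

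Cyp2c69 and Cyp2c40 are known for higher levels in female than in male mouse liver. Cyp2c69 stood at 881, 924, 1626, 1138 and 971 CPM in chow mice 1, 2, 5, 7 and 10. It was 727, 671, 503, 859 and 511 CPM in the fishmeal mice, 240.1, 487 and 664 CPM as the lowest, median and highest of the salmon filet mice, and 422, 642, 274 and 343 CPM in the beef mice. All 15 HFD mice lay below the lowest chow mouse, and Cyp2c69 was the only member without overlap, against 0.888% of all genes lower without overlap. The mean fell from 1108 ± 305 CPM (SD, n = 5) to 518 ± 175 CPM (SD, n = 15). On the log2 scale this was a change of -1.10 ± 0.22 (SE) with an adjusted p of 0.00219 in edgeR. Its share of the family's CPM was 13.8% to 24.4% in chow and 7.06% to 18.4% in HFD mice, so these ranges overlapped. Cyp2c40, which hydroxylates arachidonic acid within the chain, was 497, 533, 549.5, 446 and 391 CPM in chow. The fishmeal mice had 369.6, 292, 254, 396 and 260.2 CPM, the salmon filet mice 159, 302 and 352 CPM as lowest, median and highest, and the beef mice 284, 378, 197 and 188 CPM. Only the highest fishmeal mouse reached the lowest chow mouse. The log2 fold change of Cyp2c40 was -0.75 ± 0.16 (SE), from 483 ± 64.9 to 288 ± 70.3 CPM, with an adjusted p of 0.00423 in edgeR.

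Cyp2c37, Cyp2c50 and Cyp2c54 form the next group of close copies, of which Cyp2c37 and Cyp2c54 passed and Cyp2c50 did not. The difference between these copies was not tested. Cyp2c37, known for hydroxylating arachidonic acid, was 855, 598, 898, 785 and 934 CPM in chow mice and between 406 and 736 CPM in HFD mice, with a median of 541 CPM. Its log2 fold change was -0.55 ± 0.12 (SE) with an adjusted p of 0.00579 in edgeR, and chow mouse 2 lay within the HFD range. Cyp2c54, an epoxygenase, had the widest spread of the abundant members, with a coefficient of variation of 64.0% over all 20 mice. It was 351, 238, 372, 142 and 224 CPM in chow, 126, 134, 211, 178 and 72.4 CPM in fishmeal, 19.8, 80.7 and 153 CPM as lowest, median and highest in salmon filet, and 64.2, 134, 68.9 and 136 CPM in beef mice. Salmon filet mice ranged over most of the HFD values, and the lowest chow mouse lay among the HFD mice. Its mean was 265 ± 95.6 CPM in chow and 109 ± 54.1 CPM in HFD mice, with a log2 fold change of -1.29 ± 0.34 (SE) and an adjusted p of 0.0185 in edgeR. Without chow mouse 1 the adjusted p was 0.0728 and without chow mouse 5 it was 0.0577, so the call rested on these libraries. Cyp2c50, another epoxygenase, did not pass, with 749 ± 217 CPM in chow and 625 ± 141 CPM in HFD mice. Its log2 fold change was -0.26 with a 95% interval from -0.60 to 0.07 (adjusted p = 0.371 in edgeR), which includes falls as large as that of Cyp2c37.

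Cyp2c29 and Cyp2c38 are neighbouring epoxygenases whose reads are nearly all their own, and their values lay on opposite sides of 0. Cyp2c29, among the best known targets of CAR, was 1398, 932, 1116, 1124 and 1062 CPM in chow and 559 to 1209 CPM in HFD mice, with a median of 777 CPM. Of the 15 HFD mice 13 lay below all chow mice, and the 2 exceptions were fed fishmeal. Its log2 fold change was -0.50 ± 0.13 (SE) with an adjusted p of 0.0165 in edgeR, or 0.0922 without chow mouse 1. Cyp2c38 was the only member with a higher mean in HFD mice, 229 ± 29.1 CPM against 190.5 ± 32.2 CPM in chow. It was 245, 159, 186, 182 and 179.5 CPM in chow, 238, 279, 252, 221 and 192 CPM in fishmeal, 208, 221 and 268 CPM as lowest, median and highest in salmon filet, and 275, 238, 183 and 205 CPM in beef mice. Chow mouse 1 was as high as most HFD mice and the other chow mice were at the low end. The log2 fold change of Cyp2c38 was 0.26 ± 0.11 (SE) and did not pass (adjusted p = 0.122 in edgeR), but without chow mouse 1 it was 0.38 with an adjusted p of 0.0332.

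Cyp2c23 and Cyp2c55 complete the enzymes of arachidonic acid. Cyp2c23, an epoxygenase best known from kidney and vessels, was 497, 311, 405, 484 and 393 CPM in chow. It was 272, 296, 271, 349.6 and 198 CPM in fishmeal, 148, 209.7 and 276 CPM as lowest, median and highest in salmon filet, and 206, 228, 224 and 241 CPM in beef mice. Of the 15 HFD mice 14 lay below all chow mice, and the exception was a fishmeal mouse. Cyp2c23 had the smallest p of the members, with a log2 fold change of -0.83 ± 0.14 (SE) and an adjusted p of 0.000609 in edgeR, and its transcript shares no 50-base stretch with another Cyp2c gene of the annotation. Cyp2c55, known for hydroxylating arachidonic acid near its end, was 9.47, 7.40, 2.32, 4.24 and 1.68 CPM in chow and 0.802 to 3.69 CPM in HFD mice, with a median of 1.41 CPM. It had the largest log2 fold change of the members, -1.71 ± 0.32 (SE) with an adjusted p of 0.00150 in edgeR, at counts of 36 to 632 per library. Chow mice 5 and 10 lay within the HFD range and chow mice 1 and 2 far above it.

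Cyp2c70, the muricholic acid enzyme, was among the steadiest members. It was 637, 524, 582, 612 and 501 CPM in chow, 742, 424, 442, 669.9 and 420.1 CPM in fishmeal, 462, 509 and 588 CPM as lowest, median and highest in salmon filet, and 579.6, 475, 431 and 406 CPM in beef mice. The groups overlapped throughout, and the fishmeal mice alone spanned nearly the whole range. The log2 fold change of Cyp2c70 in HFD mice was -0.17 with a 95% interval from -0.41 to 0.08, which did not pass (adjusted p = 0.445 in edgeR).

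**Figure D2:**
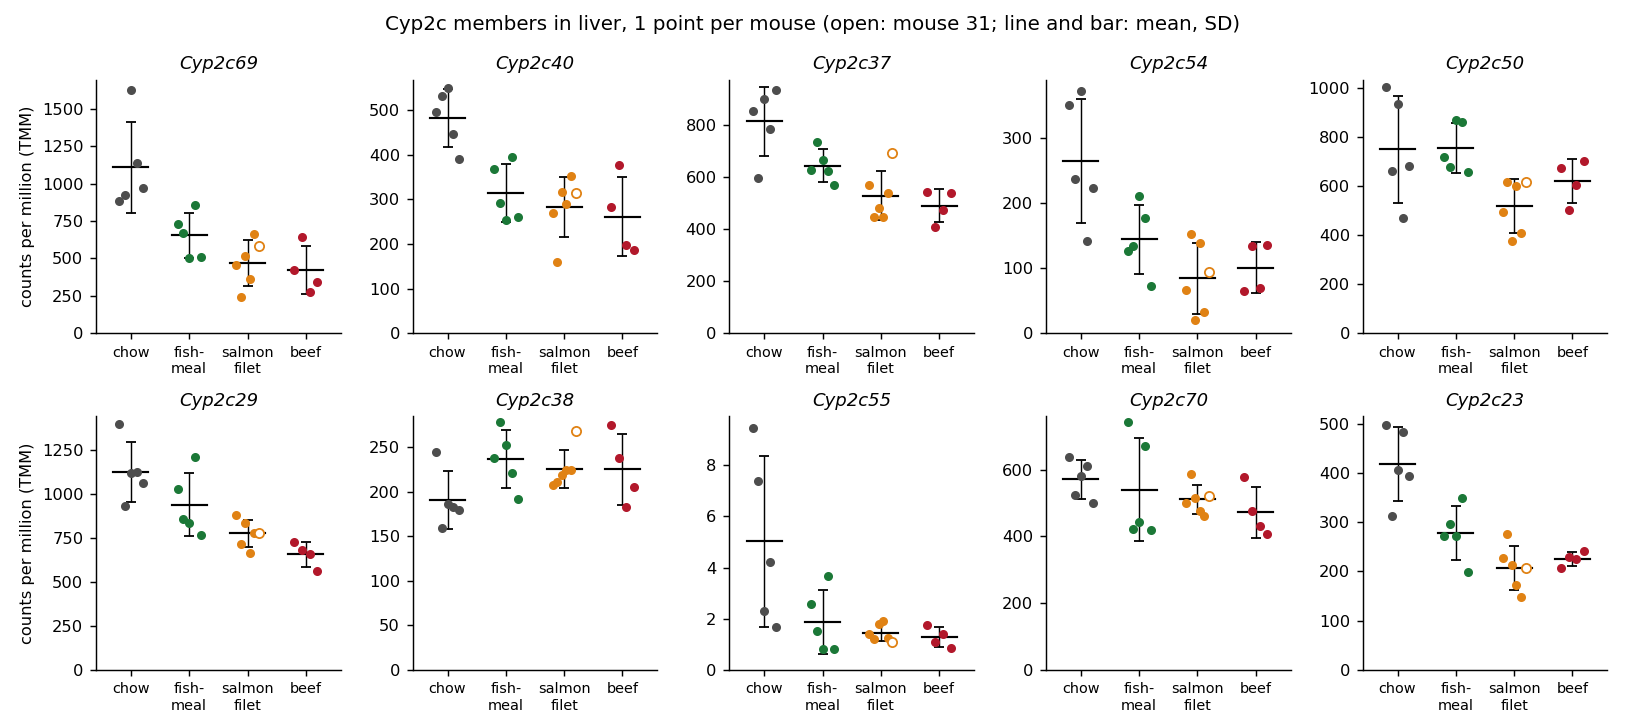
CPM of each member in every mouse by diet group, with 1 point per mouse, the mean as a line, the SD as a bar and mouse 31 as an open point. Cyp2c69 showed no overlap between chow (881 CPM and above) and the HFD groups (859 CPM and below), whereas Cyp2c70 and Cyp2c38 overlapped in all groups.

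Each HFD group was then compared with chow on its own. These 3 comparisons share the same 5 chow mice, so that a chosen gene's values in them are not independent. In the fishmeal group 1 of the 10 members was called, Cyp2c40 with a log2 fold change of -0.63 ± 0.15 (SE) and an adjusted p of 0.0397 in edgeR, where 3.38% of 16471 genes were called and 1.93% were called lower. Cyp2c69 lay below all chow mice in all 5 fishmeal mice, as did 3.13% of all genes, but missed the threshold with a log2 fold change of -0.77 and an adjusted p of 0.0507. Cyp2c23 missed it as well (log2 fold change -0.60, adjusted p = 0.0631 in edgeR), and Cyp2c50 was level with chow at 756 ± 102 against 749 ± 217 CPM. The call of Cyp2c40 was lost when any of chow mice 1, 2, 5 and 7 or fishmeal mice 13, 14 and 20 was left out, which gave 0 calls in edgeR. Over the 10 fits with 1 mouse left out, 5 to 8 members had an unadjusted p under 0.05, and the share of all genes at that level was not computed. DESeq2 on all 10 mice called 4 members, where it called 1175 of 16471 genes against 556 in edgeR. Without fishmeal mouse 16 there were 3 calls.

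In the salmon filet group 6 members were lower than in chow and none was higher, where 4.46% of 16605 genes were called and 2.32% were called lower. They were Cyp2c23 with a log2 fold change of -1.02 ± 0.16 (SE), Cyp2c29 with -0.55, Cyp2c37 with -0.63, Cyp2c40 with -0.77, Cyp2c55 with -1.81 and Cyp2c69 with -1.24. Their adjusted p values in edgeR ran from 0.00469 for Cyp2c23 to 0.0271 for Cyp2c37, and that of Cyp2c54 was 0.0541 at a log2 fold change of -1.66. Cyp2c23, Cyp2c29, Cyp2c40 and Cyp2c69 did not overlap with chow, against 2.44% of all genes. With mouse 31 counted as beef Cyp2c37 did not overlap either, the salmon filet group again had 6 members called, and without salmon filet mouse 26 it had 3.

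In the beef group 6 members were also lower than in chow and none was higher, where 2.48% of 16559 genes were called in either direction. These were Cyp2c23 with a log2 fold change of -0.90 ± 0.14 (SE), Cyp2c29 with -0.78, Cyp2c37 with -0.73, Cyp2c40 with -0.89, Cyp2c54 with -1.40 and Cyp2c69 with -1.40. None of the 6 overlapped with chow, against 4.43% of all genes lower without overlap. With mouse 31 counted as beef Cyp2c37 overlapped and the other 5 did not. The adjusted p in edgeR ran from 0.00976 for Cyp2c23 to 0.0477 for Cyp2c40. With mouse 31 counted as beef 6 were called again, but Cyp2c37 dropped out (adjusted p = 0.0534) and Cyp2c55 came in (adjusted p = 0.0310). With only 4 beef mice the count hung on single libraries, since 1 member was called without beef mouse 39 or 40, 3 without chow mouse 1 or 7, and 4 without beef mouse 35.

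**Figure D3:**
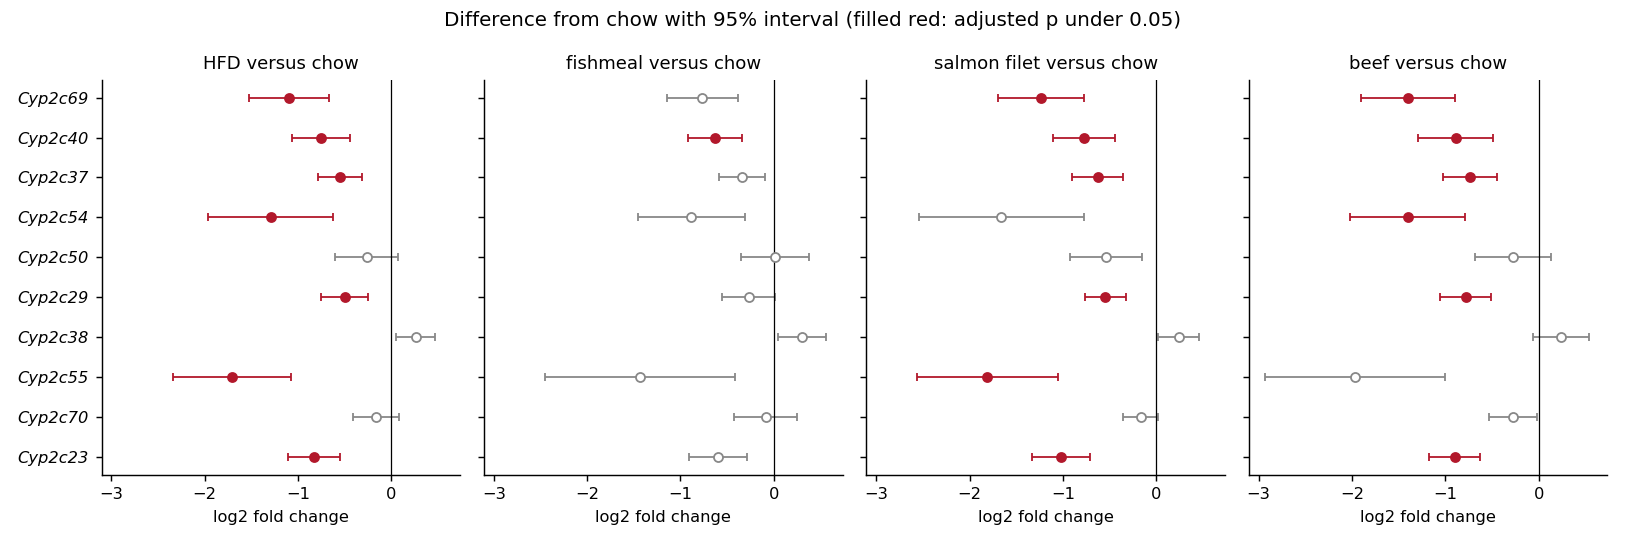
Log2 fold change from chow with its 95% interval for each member, in all HFD mice and in each diet group, with filled red points for an adjusted p under 0.05. In all HFD mice 7 members were called lower, from -0.50 (Cyp2c29) to -1.71 (Cyp2c55), and 1, 6 and 6 were called lower in the fishmeal, salmon filet and beef groups.

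Whether the 3 HFD groups differed from each other was tested directly. A call in one group and not in another does not show a difference. The paper reports that these diets also differed in cholesterol, added soybean oil and fatty acids. Protein source therefore cannot be told apart from these in any comparison between HFD groups. Between fishmeal and salmon filet 0 of the 10 members passed in edgeR and 0 in DESeq2, where edgeR called 0.157% of 16548 genes. All 10 had a higher mean log2 level with fishmeal, a direction that 53% of all genes shared, while limma on TPM had 1 member lower with fishmeal. At an unadjusted p under 0.05 there were 4 members, all higher with fishmeal, against 1.62% of all genes: Cyp2c50, Cyp2c23, Cyp2c37 and Cyp2c29. For Cyp2c50 the 5 fishmeal mice had 716, 677, 869, 861 and 657 CPM, and the salmon filet mice had 376, 548 and 618 CPM as lowest, median and highest. The fishmeal mice all lay above the salmon filet mice, as was the case for 0.151% of all genes. The log2 fold change of Cyp2c50 was 0.56 with a 95% interval from 0.26 to 0.86, and it failed the correction over all genes (adjusted p = 0.460 in edgeR).

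Between fishmeal and beef 0 of the 10 members passed in edgeR and 0 in DESeq2, where edgeR called 1 of 16480 genes, or 0.00607%. Again all 10 means were higher with fishmeal, as were those of 49.3% of all genes, while 3 were lower with the clock covariate described below. In edgeR without it, 3 members had an unadjusted p under 0.05 against 0.856% of all genes higher at that level. Cyp2c29 was 939 ± 179 CPM with fishmeal and 656 ± 70.9 CPM with beef, a log2 fold change of 0.51 with a 95% interval from 0.20 to 0.82 (adjusted p = 1.00 in edgeR). Cyp2c29 and Cyp2c37 were without overlap here, against 0.364% of all genes, but with mouse 31 counted as beef both overlapped, since it had 777 CPM of Cyp2c29 and 691 CPM of Cyp2c37. The salmon filet and beef comparisons share the fishmeal mice. With mouse 31 counted as beef there were 0 calls in both comparisons, with 4 members each at an unadjusted p under 0.05. The share of all genes at that level was not computed for this setting.

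Between salmon filet and beef 0 of the 10 members passed in edgeR or DESeq2, with 0 and 1 at an unadjusted p under 0.05, where edgeR called 0 of 16509 genes and DESeq2 called 2. Cyp2c29 was nearest, 775 ± 78.1 CPM with salmon filet and 656 ± 70.9 CPM with beef, with a log2 fold change of 0.23 and a 95% interval from 0.01 to 0.46 (adjusted p = 1.00 in edgeR). The interval of Cyp2c54 ran from -1.22 to 0.68 and that of Cyp2c69 from -0.39 to 0.71, so that differences of these sizes were not excluded. Mouse 31 counted as beef left 0 members called.

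Because reads may move between copies, counts were also summed over genes that share 50-base stretches, as values without a test. Cyp2c40, Cyp2c69 and the other copies Cyp2c67 and Cyp2c68 together had 2385 ± 377 CPM (SD, n = 5) in chow and 1476 ± 298 CPM (SD, n = 15) in HFD mice, a log2 ratio of -0.69. HFD mice ran from 948 to 2163 CPM and chow mice from 2110.3 to 3044 CPM, so they overlapped at the edge, while the salmon filet and the beef mice all lay below the chow mice. Cyp2c37, Cyp2c50 and Cyp2c54 together had 1828 ± 382 CPM in chow and 1289.8 ± 248 CPM in HFD mice, a log2 ratio of -0.50, with overlap. For Cyp2c38 and Cyp2c39 the sums were 208 ± 32.3 and 245 ± 30.5 CPM, a log2 ratio of 0.23. In HFD versus chow each sum had the sign of the followed members in it. Every summed gene but Cyp2c39 had that sign on its own, so the sign of a sum cannot show whether reads moved between copies. Cyp2c39, at 17.7 CPM in chow, had the opposite sign to its sum. The log2 value of Cyp2c54 on its own was further below 0 than that of its group. Cyp2c39, Cyp2c67 and Cyp2c68 did not pass on their own (log2 fold changes -0.21, -0.20 and -0.27, adjusted p = 0.255, 0.279 and 0.0610 in edgeR). Cyp2c65 had at most 0.0325 CPM and Cyp2c66 was at 0 counts in every library.

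**Figure D4:**
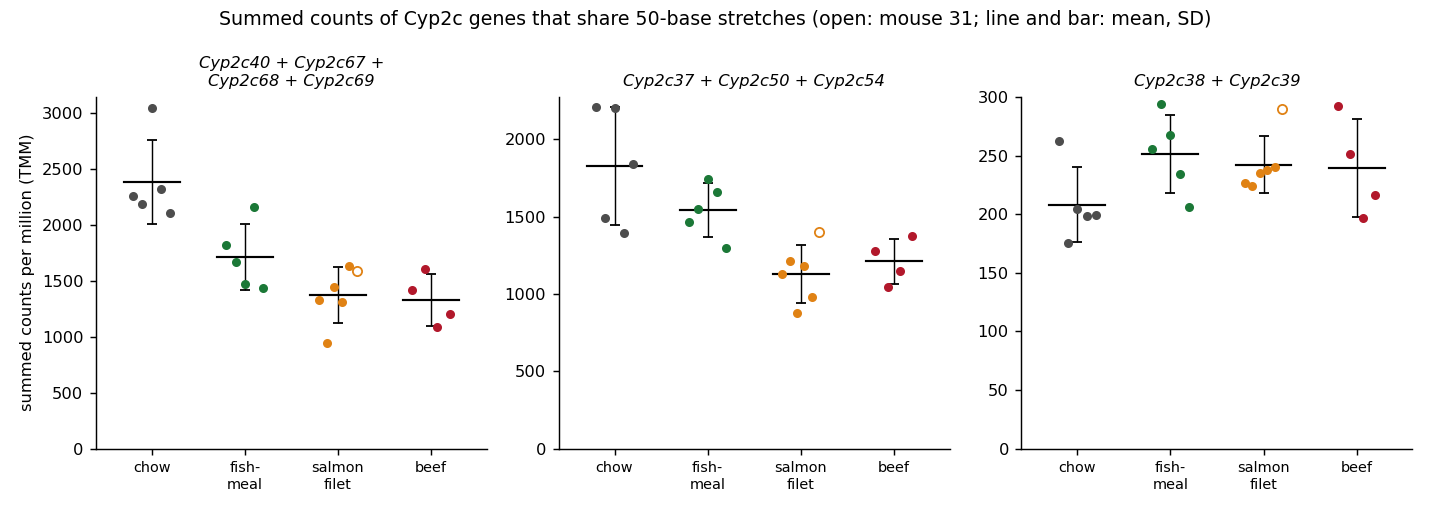
Summed CPM of Cyp2c genes that share 50-base stretches, with 1 point per mouse, the mean as a line, the SD as a bar and mouse 31 as an open point. The sum of Cyp2c40, Cyp2c67, Cyp2c68 and Cyp2c69 was 2385 CPM in chow and 1476 CPM in HFD mice, and that of Cyp2c38 and Cyp2c39 was 208 and 245 CPM.

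Correlations between members within groups were mostly weak. After the means of the 4 groups were removed, log2 CPM of 34 of the 45 pairs of members were correlated above 0 over the 20 libraries, with a median Pearson r of 0.26 and a range from -0.34 to 0.86. Of all pairs among 12692 genes with a mean of at least 1 CPM 50% were above 0. The highest were Cyp2c40 with Cyp2c69 (0.86) and Cyp2c50 with Cyp2c54 (0.76), both pairs that share stretches of sequence, followed by Cyp2c29 with Cyp2c70 (0.71), which share none. All pairs share the same libraries and depths, and the values are a description.

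Genes around the family were taken from lists. Among 16 targets of CAR and PXR outside the family 7 were lower and 1 was higher in HFD mice. Cyp2b10, the standard reporter of CAR activity in mouse liver, fell from 35.0 ± 19.5 to 1.99 ± 1.36 CPM (log2 fold change -4.14, adjusted p = 2.57e-07 in edgeR), with the lowest chow mouse at 18.9 CPM and the highest HFD mouse at 5.28 CPM. The glutathione transferases Gsta2 and Gstm3 fell, with log2 fold changes of -1.68 and -1.502, and Cyp2a5, which breaks down coumarin and nicotine, rose with one of 1.05. The receptors themselves did not pass (adjusted p = 0.453 for Nr1i3 and 0.416 for Nr1i2 in edgeR). Of 22 regulators tested 0 were lower and 6 were higher, among them Dbp (log2 fold change 4.70), Tef (1.80) and Hlf (0.49), which are output factors of the circadian clock, and the fatty acid receptor Ppara (0.85).

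Among 23 genes of eicosanoid metabolism 4 were lower and 0 higher: the arachidonate ligase Acsl4 (log2 fold change -0.82), the epoxide hydrolase Ephx1 (-0.59), Cyp4f14 (-0.46) and a gene under 1 CPM. Of 8 genes that supply electrons and heme to P450 enzymes 0 passed in edgeR, with Por at 266 ± 74.1 CPM in chow and 257 ± 93.9 CPM in HFD mice. Of 11 bile acid genes 2 fell and 0 rose, namely Cyp7a1, the rate-limiting enzyme of bile acid synthesis (log2 fold change -1.98), and Cyp27a1 (-0.65), beside the overlap of Cyp2c70. Of 11 male-biased genes 6 fell and 0 rose, with Slco1a1 at a log2 fold change of -3.78. Of 12 pericentral genes 3 fell (Cyp1a2, Tbx3, Axin2) and 1 rose (Lect2), and of 12 periportal genes 0 passed.

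Markers of other cells were counted in the same way. All 6 T and B cell markers were tested and 4 fell, with a summed level of 5.19 to 11.1 CPM in chow and 2.07 to 5.47 CPM in HFD mice. Of 6 endothelial markers 2 fell (Clec4g, Fcgr2b) and of 5 cholangiocyte markers 1 fell (Sox9), while 1 of 2 exocrine pancreas markers (Cela1) and 1 of 5 red blood cell markers (Alas2) rose. None of 6 Kupffer cell, 6 stellate cell, 2 neutrophil and 2 intestinal markers tested passed in edgeR, and no adipocyte or kidney tubule marker reached the filter. Their part in the family's values was not tested.

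Clock genes moved with the diet as well. Of 12 core clock genes 2 were lower and 7 higher in HFD than in chow mice, and Dbp ran from 0.734 to 2.28 CPM in chow and from 1.159 to 115 CPM in HFD mice. The time of day at which the mice were killed is not given in the sources used here. The first principal component of the 12 genes held 89.6% of their variance and lay between -6.31 and -2.24 in chow mice, with 13 of the 15 HFD mice above that range. The 2 within it, salmon filet mice 22 and 31, had a family sum of 3673 and 4078 CPM, below the lowest chow mouse at 4885 CPM. With the component as a covariate 0 members were called between HFD and chow in edgeR, where 281 of 17120 genes were called. At an unadjusted p under 0.05 there were 6 members, and the share of all genes at that level was not computed. Under it the log2 fold change was -0.77 for Cyp2c23 (adjusted p = 0.0593), -0.87 for Cyp2c69 (adjusted p = 0.162), -0.93 for Cyp2c55 and -0.27 for Cyp2c29. After group means were removed, all 10 members were correlated below 0 with the component over the 20 libraries, with r from -0.13 (Cyp2c23) to -0.46 (Cyp2c38), as a description over shared libraries. Of the 12692 genes 48% were below 0. Diet and clock component overlapped too little between chow and HFD mice to be told apart.

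**Figure D5:**
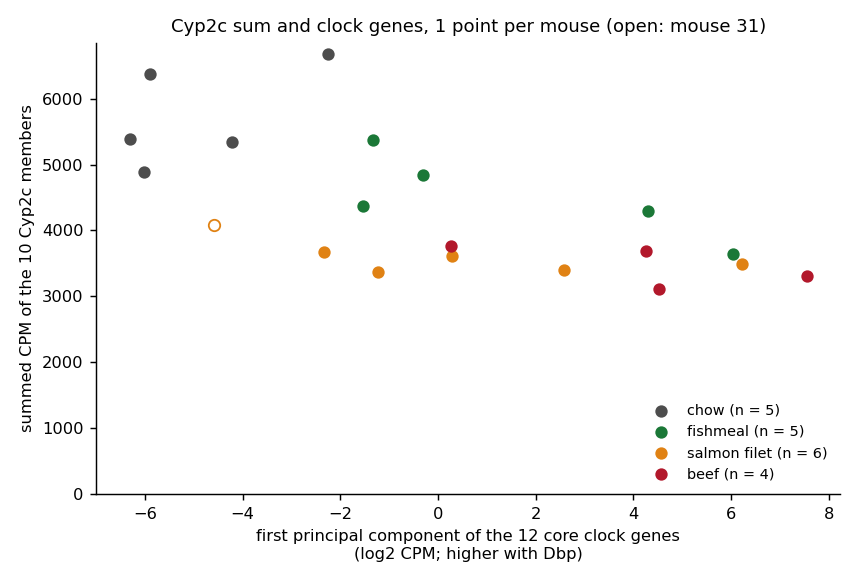
Summed CPM of the 10 members against the first principal component of 12 core clock genes, with 1 point per mouse and mouse 31 open. Chow mice lay at 4885 to 6670 CPM and at -6.31 to -2.24 on the component. Salmon filet and beef mice lay at 3116 to 4078 CPM and -4.58 to 7.55, and fishmeal mice at 3647 to 5371 CPM and -1.53 to 6.03.

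The sum of the 10 members put the groups in one view. It was 5731 ± 755 CPM (SD, n = 5) in chow, 4507 ± 645 CPM (SD, n = 5) in fishmeal, 3605 ± 259 CPM (SD, n = 6) in salmon filet and 3474 ± 309.9 CPM (SD, n = 4) in beef mice. All salmon filet and beef mice lay below all chow mice, and fishmeal mouse 16 with 5371 CPM lay within the chow range. Mouse 31, counted here as salmon filet by its label, had 4078 CPM. These values are a description, since the members were chosen with results of these data known.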

How the data were processed

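The authors trimmed paired reads of 50 bases from strand-specific mRNA libraries with BBDuk. The submitters' processing notes name HISAT2 1.2.1 and featureCounts 1.4.6-p1 and, for these mouse samples, the build GRCh38, and settings for strand and for reads that fit several genes are not given in the sources used here. The deposited values are raw counts per Ensembl gene and, in a second table by the authors, TPM, which matched counts divided by 1 length per gene for 11623 of 11623 genes checked (coefficient of variation under 1%). Positions and sequences are from GRCm38 (GENCODE M21) and RefSeq.

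Groups came from the sample labels. Counts were tested with edgeR 4.0.16 in R 4.3.3 (quasi-likelihood F-test, two-sided, TMM, filterByExpr with a minimum count of 10), fitted on the groups compared, with Benjamini-Hochberg adjustment over all genes tested and calls at an adjusted p under 0.05. Intervals of 95% are 1.96 SE on either side. With few mice they are narrower than the F-test implies, so an interval can exclude 0 where the unadjusted p is above 0.05. With 1 library per mouse, p-values measure the spread between mice. The fit of HFD versus chow was tested on simulated counts with the same dispersion for every gene. Fits of single diet groups and the clock covariate were not tested in this way. No 2 libraries of a group were alike within sampling noise. CPM uses TMM factors over all 20 libraries.

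All 10 members are named, as are the other Cyp2c genes. From each gene list up to 4 genes are named, those with the largest change among called genes with a mean of at least 1 CPM in HFD versus chow. For the member with the highest TPM and that with the smallest p, the 5 genes with the most alike log2 CPM are named. The members and lists were chosen with earlier results of these data known. The result of 1 list is not reported here. Genes said to be under 1 CPM or at 0 fall outside that rule and were named after their values were seen.

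Alternatives were DESeq2 1.42.0, DESeq2 size factors, upper quartile normalisation, no filter, limma 3.58.1 on log2(TPM + 1) for genes with a mean TPM of at least 0.5, all 4 groups in 1 fit, a clock covariate, mouse 31 as beef, sums over paralogues and each mouse left out.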

Additional observations from a re-analysis of the deposited data

Results flagged for a closer look

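Of 40 groups of values (10 members in 4 diets) 1 held a sample far from the others. Cyp2c38 was 268 CPM in salmon filet mouse 31, with the nearest of the other 5 salmon filet mice at 225 CPM. This gap was 0.717 of the range of the group, above Dixon's limit for 6 samples. About 1 in 20 groups would pass this limit by chance. Mouse 31 is the mouse whose diet is named differently by its label and by the count table. Its value lay within the 183 to 275 CPM of the 4 mice labelled beef. Whether the value is related to the naming was not tested.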

How the results depend on the processing

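Counts of members called were recomputed for all 7 comparisons, and log2 fold changes of members for the 4 comparisons with chow. Gene lists, correlations and TPM levels were not. With the clock component as a covariate 0 members were called in edgeR in HFD, fishmeal, salmon filet and beef versus chow, with 6, 1, 8 and 5 at an unadjusted p under 0.05. Shares of all genes at that level were not computed for any alternative or left-out mouse. Why the calls were lost was not tested, and the beef fit then called 0 of all 16559 genes. In fishmeal versus chow DESeq2 called 4 members, upper quartile normalisation 2, no filter 2 and limma on TPM 2, in place of 1, and the cause was not tested. Of all genes these settings called 1175 of 16471, 562 of 16471, 620 of 29178 and 367 of 15090, against 556 of 16471 in the main fit. All other counts of members stayed within 1.5 times, and HFD versus chow gave 7 under each of the other alternatives. When single mice were left out the counts ran from 6 to 7 for HFD, from 0 to 3 for fishmeal, from 3 to 7 for salmon filet and from 1 to 4 for beef versus chow, and were 0 in all fits between HFD groups, with 0 to 5 members at an unadjusted p under 0.05.

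Directions in comparisons with chow changed only for values that had not passed there. Cyp2c50 in fishmeal versus chow, at 0.01, was -0.0045 with limma on TPM, -0.10 with the clock covariate and -0.12 to 0.15 with single mice left out, below 0 without chow mouse 2, 7 or 10 or fishmeal mouse 14 or 16. With the clock covariate Cyp2c70 turned to 0.042 in HFD, 0.28 in fishmeal and 0.26 in beef versus chow, Cyp2c55 to 0.50 in fishmeal and 0.49 in beef, and Cyp2c29 to 0.032 in fishmeal. No paired analysis was possible because replicates are numbered by mouse and no number occurs in 2 groups. Between HFD groups all 10 members were higher with fishmeal, but 1 was lower against salmon filet with limma on TPM and 3 were lower against beef with the clock covariate.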

Other observations

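Genes whose log2 CPM followed a member most closely over the 20 libraries were sought among 12679 genes with a mean of at least 1 CPM, as a description. For Cyp2c69 they were Car2, a carbonic anhydrase (Pearson r = 0.83), Abcc4, an export pump (0.82), Htatip2 (0.80), Gm15375 (0.80) and ENSMUSG00000106069 (0.79). After group means were removed they were Stard4, a carrier of cholesterol inside the cell (0.82), Btg1 (0.76), Nt5e (0.75), D130043K22Rik (0.75) and Fam126a (0.74). For Cyp2c23 they were Keg1 (0.84), Fam65b (0.83), ENSMUSG00000114818 (0.82), the mitochondrial chaperone Hspd1 (0.82) and the CAR target Cyp2b10 (0.81). Without group means they were the steroid and drug oxidase Cyp3a13 (0.87), Ap1ar (0.77), Ctsc (0.77), Mitd1 (0.75) and Pigr (0.74). None of these genes was shared between the lists of the members, and all values share the libraries and their depth.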
